A study of Mus musculus with 12 samples.

Results

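*Ccbe1*, *Dcc*, *Gabrr1*, *Plat*, *Samd4* and *Zdhhc2* are 6 of the 55487 genes counted in mouse lens RNA, and they were selected by their own read counts, because their levels in *Trpm3*-KO and in *Trpm3*-M/M lenses lay on opposite sides of wild-type. Lens RNA at P7 (an age of 7 days) was sequenced in 12 libraries, 3 for each of 4 genotypes: wild-type, *Trpm3*-KO (knockout), in which the gene was disrupted by homologous recombination, and *Trpm3*-I/M with *Trpm3*-M/M, heterozygous and homozygous for a gene-edited missense allele that replaces isoleucine with methionine. These alleles are in the germline and not confined to the lens. Each library was described as holding 8 lenses, 4 from males and 4 from females. The values are estimated counts per gene, given here as CPM (the count scaled to all reads counted in its library, with TMM factors), and 56162169 to 82090198 reads per library were counted on genes.

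TRPM3 is a calcium-permeable cation channel of the plasma membrane that is strongly expressed in the lens epithelium, the single cell layer that supplies the transparent fiber cells. The microRNA gene *Mir204* lies in an intron of *Trpm3*. The 6 genes belong to no common pathway: *Ccbe1* encodes a secreted matrix protein that promotes the processing of VEGF-C, *Plat* a secreted protease (tissue plasminogen activator), *Dcc* a receptor for netrin, *Gabrr1* a subunit of GABA-gated chloride channels, *Samd4* an RNA-binding repressor of translation and *Zdhhc2* an enzyme that attaches palmitate to proteins.

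Markers of lens fibers and lens epithelium were present in all 12 libraries. *Trpm3* itself averaged 268.5 ± 17.3 CPM (SD, n = 3) in wild-type, 95.3 ± 5.02 in knockout, 386.6 ± 23.4 in heterozygous and 475.2 ± 8.03 in homozygous mutant lenses. Against wild-type, it was changed on the log2 scale by −1.49 (standard error 0.06; adjusted p = 3.36e-09) in the knockout, 0.53 (0.06; adjusted p = 1.62e-05) in the heterozygote and 0.82 (0.06; adjusted p = 5.84e-08) in the homozygote. The targeted allele is described as giving fusion transcripts, and reads anywhere in the gene were counted. The share of such transcripts in the remaining counts was not tested. The *Trpm3*-I/M replicate 3 library went against its description as a pool of both sexes: it held 0.0721 CPM of *Xist*, the RNA of the inactive X chromosome, against 45.8 to 304.9 CPM in the other 11 libraries, and 69.1 CPM summed over 4 Y-linked genes against 21.6 to 50.6. Values for *Trpm3*-I/M are therefore also given without it.

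*Ccbe1* was the member with its highest level in *Trpm3*-KO and its lowest in *Trpm3*-M/M. It held 4.09, 4.87 and 2.97 CPM in the wild-type libraries and 9.03, 8.66 and 10.03 CPM in *Trpm3*-KO. It held 0.957, 0.972 and 1.63 CPM in *Trpm3*-I/M and 0.400, 0.488 and 0.474 CPM in *Trpm3*-M/M. The 4 genotypes did not overlap, and the order ran from *Trpm3*-KO through wild-type and *Trpm3*-I/M to *Trpm3*-M/M. The log2 fold change against wild-type was 1.22 (standard error 0.18) in *Trpm3*-KO and −3.12 (0.23) in *Trpm3*-M/M. *Ccbe1* spans 18:66045302-66302741 on the minus strand (GRCm38), and its exons share bases with an antisense gene, *Gm15958*, which averaged at most 0.142 CPM in any genotype.

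*Plat*, the second secreted protein, ran the other way. Its level was 1.57, 2.08 and 2.77 CPM in wild-type libraries and 1.08, 1.01 and 1.03 CPM in *Trpm3*-KO. It was 1.47, 1.54 and 1.73 CPM in *Trpm3*-I/M and 8.58, 14.1 and 13.9 CPM in *Trpm3*-M/M. The *Trpm3*-M/M libraries stood above all others, whereas the lowest wild-type library lay between the *Trpm3*-I/M libraries. The fitted log2 fold change was −1.04 (standard error 0.26) in *Trpm3*-KO, the smallest distance from wild-type among the 6 genes in that genotype, and 2.51 (0.20) in *Trpm3*-M/M. *Plat* lies at 8:22757727-22782844 on the plus strand.

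*Dcc* encodes a transmembrane receptor that guides growing axons toward netrin. Wild-type libraries held 1.83, 2.02 and 1.78 CPM and *Trpm3*-KO libraries 0.692, 0.705 and 0.657 CPM. *Trpm3*-I/M libraries held 1.09, 1.48 and 1.71 CPM, all below the lowest wild-type library, and *Trpm3*-M/M libraries 8.88, 11.4 and 14.7 CPM. The heterozygous libraries thus lay between wild-type and *Trpm3*-KO, on the far side of wild-type from *Trpm3*-M/M. The log2 fold change was −1.45 (standard error 0.25) in *Trpm3*-KO and 2.64 (0.19) in *Trpm3*-M/M. *Dcc* is the longest of the 6 genes, at 18:71253634-72351069 on the minus strand, a span of 1097.4 kb with 13.2 kb of exons.

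**Figure D1:**
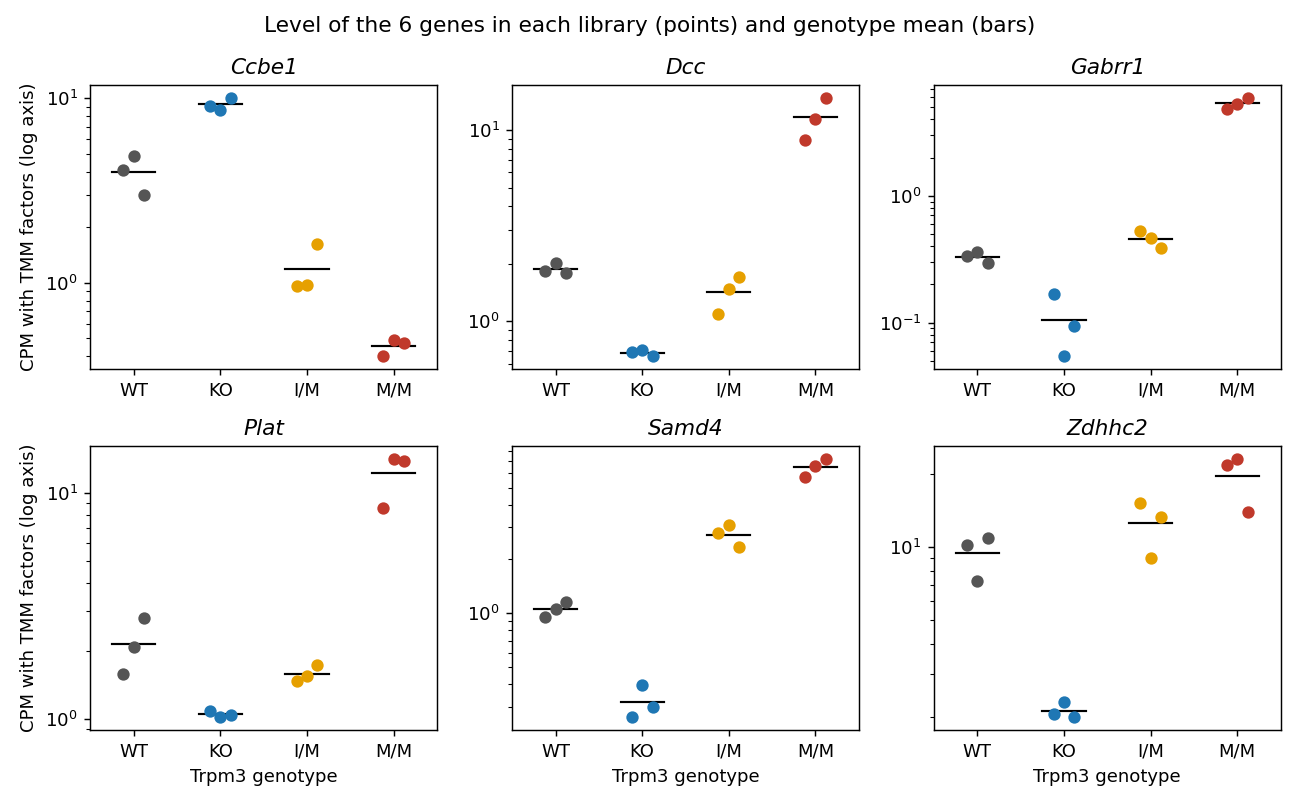
Level of each of the 6 genes (CPM with TMM factors, log axis) in the 3 libraries of each genotype (points), with the genotype mean (bar). *Trpm3*-KO and *Trpm3*-M/M libraries lie on opposite sides of wild-type in every panel, as the selection required, while *Trpm3*-I/M libraries lie apart from wild-type in 4 panels and overlap it for *Plat* and *Zdhhc2*.

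*Gabrr1*, the GABA-gated channel subunit known best from retinal bipolar cells, had the lowest counts and the greatest range. It had 17, 17 and 15 counts in wild-type and 9, 3 and 5 counts in *Trpm3*-KO, or 0.330 ± 0.0302 and 0.106 ± 0.0578 CPM (SD, n = 3). It had 39, 38 and 27 counts in *Trpm3*-I/M and 388, 485 and 524 counts in *Trpm3*-M/M, or 0.459 ± 0.0683 and 5.34 ± 0.536 CPM. No genotypes overlapped, but counts this small leave the *Trpm3*-KO level loosely set, and its 3 libraries spread 3.1-fold. The log2 fold change was −1.63 (standard error 0.34) in *Trpm3*-KO, and −2.13 without *Trpm3*-KO replicate 1, and it was 4.01 (0.18) in *Trpm3*-M/M. *Gabrr1* lies at 4:33132521-33163588 on the plus strand.

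*Samd4*, a sterile alpha motif protein that binds hairpins in messenger RNAs, was graded across the genotypes. Wild-type libraries held 0.944, 1.05 and 1.15 CPM and *Trpm3*-KO libraries 0.262, 0.398 and 0.301 CPM. *Trpm3*-I/M libraries held 2.78, 3.09 and 2.32 CPM and *Trpm3*-M/M libraries 5.76, 6.58 and 7.23 CPM. All 4 genotypes were separate, in the same order as *Trpm3*. The log2 fold change was −1.70 (standard error 0.22) in *Trpm3*-KO and 2.64 (0.15) in *Trpm3*-M/M. *Samd4* lies at 14:46882854-47105815 on the plus strand and shares exonic bases with the antisense gene *2810457G06Rik*, which averaged at most 0.0300 CPM in any genotype.

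Promoter entries from RefSeq (GRCm38.p6) were at hand for *Gabrr1* and *Samd4* only, so the sequences upstream of their starts are shown. Both genes were low in *Trpm3*-KO and high in *Trpm3*-M/M, as were *Dcc*, *Plat* and *Zdhhc2*. The *Gabrr1* stretch is chr4:33132306-33132520 and that of *Samd4* chr14:46882715-46882853, both on the plus strand and both ending at the base before the start. Capitals would mark a match to AP-1 (TGANTCA), CRE (TGACGTCA) or EGR (GCGNGGGCG), on either strand, and none occurs.
Gabrr1: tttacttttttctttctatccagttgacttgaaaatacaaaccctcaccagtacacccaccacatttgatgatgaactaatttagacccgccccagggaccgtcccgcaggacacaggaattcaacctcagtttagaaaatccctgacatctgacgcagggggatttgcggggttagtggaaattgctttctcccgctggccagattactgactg
Samd4: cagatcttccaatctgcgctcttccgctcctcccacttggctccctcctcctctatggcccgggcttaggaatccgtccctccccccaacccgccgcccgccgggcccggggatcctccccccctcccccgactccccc
The 300-base window around the start had 47.3% GC and 9 CpG for *Gabrr1* and 69.3% GC and 27 CpG for *Samd4*, beside a median of 52.7% over all promoters. The 3 motifs were found in 7.81%, 1.79% and 5.55% of 32851 promoters, and in 0 of the 3 windows of these genes, a second start of *Samd4* included.

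*Zdhhc2*, a palmitoyltransferase, was the most abundant of the 6 genes in wild-type. It held 10.2, 7.29 and 10.9 CPM in wild-type and 2.06, 2.30 and 1.99 CPM in *Trpm3*-KO. It held 15.3, 9.08 and 13.3 CPM in *Trpm3*-I/M and 21.8, 23.1 and 13.9 CPM in *Trpm3*-M/M. *Trpm3*-KO stood well apart, whereas wild-type overlapped *Trpm3*-I/M and *Trpm3*-I/M overlapped *Trpm3*-M/M. The log2 fold change was −2.16 (standard error 0.27) in *Trpm3*-KO, the greatest of the 6 in that genotype, and 1.05 (0.21) in *Trpm3*-M/M, the smallest. *Zdhhc2* lies at 8:40423815-40510268 on the plus strand, and its exons share bases with *Cnot7* on the other strand, which held 21.1 ± 0.725 CPM (SD, n = 3) in wild-type and 20.3 ± 0.706, 21.4 ± 0.672 and 20.3 ± 0.356 CPM in the knockout, heterozygote and homozygote. The labels do not say that the library kit marked strand, so reads of overlapping genes cannot be told apart.

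Levels can be compared between genes per kb of exon. In wild-type, *Zdhhc2* had 1.71 ± 0.348 CPM per kb (SD, n = 3), *Ccbe1* 0.367 ± 0.0882 and *Plat* 0.343 ± 0.0967. *Gabrr1* had 0.144 ± 0.0132, *Dcc* 0.142 ± 0.00935 and *Samd4* 0.121 ± 0.0119. The libraries of *Ccbe1* and *Plat* overlapped, as did those of *Gabrr1* with *Dcc* and with *Samd4*, whereas *Zdhhc2* stood above all others and *Plat* above *Gabrr1*. In *Trpm3*-M/M the order changed to *Zdhhc2* (3.55 ± 0.899), *Gabrr1* (2.34 ± 0.234), *Plat* (1.955 ± 0.503), *Dcc* (0.885 ± 0.222), *Samd4* (0.754 ± 0.0851) and *Ccbe1* (0.0419 ± 0.00436). There the libraries of *Gabrr1* overlapped both of its neighbours and those of *Dcc* and *Samd4* overlapped each other, while *Plat* stood above *Dcc* and *Ccbe1* below all others.

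The wild-type, *Trpm3*-KO and *Trpm3*-M/M values chose these genes, so their separation there carries no test. As background, 2.16% of the 8984 genes tested were higher and 2.2% lower in *Trpm3*-KO than in wild-type at an adjusted p of at most 0.05, and for the homozygous mutant these shares were 31.4% and 31.4%. Past that threshold and a fold change of 2 in both comparisons, 9 genes (0.1%) ran in opposite directions, the 6 members and *Aox4*, *Gm4735* and *Sox2ot*. The stated choice names no fold threshold. The members closest to a 2-fold difference were *Plat* in *Trpm3*-KO and *Zdhhc2* in *Trpm3*-M/M. The low-count filter asked for 5 CPM in 3 libraries, and all 6 genes passed it. *Ccbe1* passed through its *Trpm3*-KO libraries alone, and *Dcc*, *Gabrr1*, *Plat* and *Samd4* through their *Trpm3*-M/M libraries alone, whereas *Zdhhc2* reached 5 CPM in 9 libraries.

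**Figure D2:**
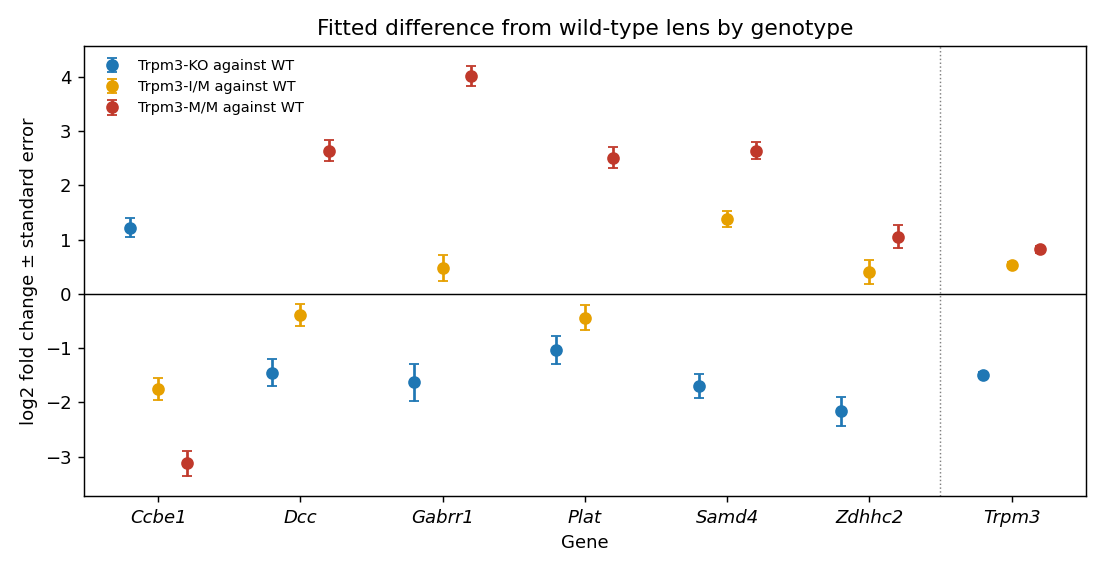
Log2 fold change against wild-type (points, with standard errors) of the 6 genes and *Trpm3* in the 3 other genotypes. In *Trpm3*-I/M, *Ccbe1* (−1.75) and *Samd4* (1.38) lie clear of 0, and *Dcc*, *Gabrr1*, *Plat* and *Zdhhc2* lie within 0.48 of it.

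The heterozygous libraries were not used to choose the genes, and the question they answer is whether 1 mutant allele moves these genes as 2 do. This comparison shares the wild-type libraries with the choice, so it is not fully independent of it. In *Trpm3*-I/M against wild-type, *Ccbe1* fell and *Samd4* rose, each by more than 2-fold, and the other 4 genes did not pass the test. *Ccbe1* changed by −1.75 (standard error 0.21; adjusted p = 2.52e-05) on the log2 scale, 3.37-fold lower, and by −2.04 (adjusted p = 7.52e-06) without *Trpm3*-I/M replicate 3. *Samd4* changed by 1.38 (0.15; adjusted p = 1.56e-05), 2.61-fold higher, and by 1.48 (adjusted p = 1.46e-05) without that library. The p-values are Benjamini-Hochberg adjusted ones of the edgeR quasi-likelihood fit, and over all genes tested 17.3% were higher and 15.3% lower in this comparison.

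For the remaining 4 genes the data bound the heterozygous difference. *Dcc* had a log2 fold change of −0.39 (approximate 95% interval −0.81 to 0.02; adjusted p = 0.181) and *Plat* of −0.44 (−0.90 to 0.02; adjusted p = 0.173). *Gabrr1* had 0.48 (0.02 to 0.94; adjusted p = 0.144) and *Zdhhc2* 0.40 (−0.02 to 0.82; adjusted p = 0.178). These intervals treat the standard error as exactly known and are narrower than the test would give. In the quasi-likelihood test *Gabrr1* had an unadjusted p of 0.0634, although its interval holds positive values only. The upper bound for *Dcc* and *Plat* lies far below the *Trpm3*-M/M values of 2.64 and 2.51, and that for *Gabrr1* far below 4.01. Without *Trpm3*-I/M replicate 3 the 4 values were −0.54, −0.51, 0.58 and 0.36, with adjusted p of 0.107, 0.187, 0.111 and 0.316. Without *Trpm3*-I/M replicate 2, the lowest of its group for *Zdhhc2*, that gene passed at 0.59 (adjusted p = 0.0483). *Trpm3*-I/M and wild-type libraries did not overlap for 4 genes (*Ccbe1*, *Dcc*, *Gabrr1* and *Samd4*), against 44.6% of all genes tested.

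For the genes that passed, the *Trpm3*-I/M log2 fold change was 0.56 of the *Trpm3*-M/M one for *Ccbe1* and 0.52 for *Samd4*. The 4 others did not pass in *Trpm3*-I/M, and their ratios (0.38 for *Zdhhc2*, 0.12 for *Gabrr1*, −0.15 for *Dcc* and −0.18 for *Plat*) are not ranked. From *Trpm3*-I/M to *Trpm3*-M/M, the log2 difference was 3.53 (standard error 0.16) for *Gabrr1*, 3.03 (0.18) for *Dcc* and 2.95 (0.20) for *Plat*. It was 1.26 (0.12) for *Samd4*, 0.65 (0.20) for *Zdhhc2* and −1.37 (0.25) for *Ccbe1*. The *Trpm3*-M/M libraries were used in the choice, so these differences are a description.

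Pairs of the 6 genes were also compared over the 12 libraries by Pearson's r of log2 CPM. Between genes of the same direction r ran from 0.71, for *Plat* and *Zdhhc2*, to 0.98, for *Dcc* and *Plat*, and between *Ccbe1* and the others from −0.99, for *Samd4*, to −0.80, for *Plat*. The genes were chosen on 9 of these libraries for their directions, which fixes the signs, and the libraries fall into genotypes that all pairs share, so the values are a description and no p is given.

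The tested genes most like each member by the same r were drawn from all 8984. They were *Ctcf* (0.991), *Adcy5* (0.987) and *Megf11* (0.985) for *Ccbe1*, and *Srebf1* (0.979), *Dennd2a* (0.973) and *Usf2* (0.972) for *Dcc*. For *Gabrr1* they were *Prcp* (0.986), *Gpr137b-ps* (0.983) and *Sap30* (0.983), and for *Plat* *Ldlrad3* (0.984), *Selenop* (0.984) and *H2-K1* (0.981). For *Samd4* they were *Ghitm* (0.987), *Bnip3l* (0.978) and *Gnb4* (0.976), and for *Zdhhc2* *Ppp2cb* (0.971), *Trpm3* (0.968) and *Myo1e* (0.962). The measure reads the order and spacing of libraries and not the size of the change. *Megf11* moved over a range like that of *Ccbe1*, from 11.5 ± 0.627 CPM (SD, n = 3) in knockout to 6.51 ± 1.41 in wild-type, 1.09 ± 0.432 in heterozygous and 0.546 ± 0.0847 in homozygous mutant lenses, while *Ctcf* ran only from 24.1 ± 0.324 to 19.2 ± 0.107. *Selenop*, which encodes a secreted selenium carrier, went from 0.895 ± 0.0504 CPM in *Trpm3*-KO to 24.6 ± 7.07 in *Trpm3*-M/M.

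Because *Mir204* lies in an intron of *Trpm3*, the sequence of its product is shown beside that of miR-211-5p, the microRNA hosted by *Trpm1*. RefSeq places miR-204-5p at chr19:22750610-22750631 and miR-211-5p at chr7:64205831-64205852, both on the plus strand of GRCm38.p6. Capitals mark the seed, bases 2 to 8, which both share.
miR-204-5p: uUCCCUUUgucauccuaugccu
miR-211-5p: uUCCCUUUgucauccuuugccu
The letters that pair with the seed (AAAGGGA, on the transcript strand) occur in the 3′ UTR of 4 of the 6 genes, once each in *Ccbe1*, *Dcc*, *Samd4* and *Zdhhc2*, and not in *Gabrr1* or *Plat*. They occur in 16.7% of 8607 tested genes with a 3′ UTR. The 4 genes have 3′ UTRs of 2052 to 5356 bases, against 710 and 738 for *Gabrr1* and *Plat* and a median of 1332 over tested genes (2705 over those with a match). For *Samd4* and *Zdhhc2* the 30 bases around the match (capitals) are as follows.
Samd4: tgtcgaaggccAAAGGGAaggccagagggt
Zdhhc2: aaaagttattaAAAGGGAaccattttctgc
These matches describe letters and not sites of action, and the level of miR-204 was not measured in these libraries.

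Each gene was set among the other genes of its pathway, members left out. The 6 lists held 95 tested genes, of which 3 rose and 0 fell in knockout lenses, 27 rose and 14 fell in heterozygous ones, and 40 rose and 16 fell in homozygous ones. These are 3.16% and 0.0% of the list genes in the knockout (2.16% and 2.2% of all genes tested), 28.4% and 14.7% in the heterozygote (17.3% and 15.3%) and 42.1% and 16.8% in the homozygote (31.4% and 31.4%). Scaled by library size alone, which raised the median of all genes by 0.20 and 0.50 (log2) in the last 2 comparisons, 54 rose and 8 fell in heterozygotes and 82 rose and 5 fell in homozygotes. The median log2 fold change over all 8984 genes was 0.0, −0.001 and −0.004 in these comparisons. Beside the 0 falls in *Trpm3*-KO, 14 list genes had an unadjusted p under 0.05 in either direction, and DESeq2 called 5. Without *Trpm3*-I/M replicate 3, 37 list genes passed in the heterozygote in place of 41. Some list genes passed the low-count filter through *Trpm3*-M/M alone, among them *Flt1*, *Nrp2*, *Tie1*, *Serpine2* and *Zfp36l1*. Their means in the other genotypes were under 5 CPM. A high level in *Trpm3*-M/M was thus a condition for testing them, which adds to the rises and medians given for that genotype.

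In the VEGF-C list around *Ccbe1*, most tested genes rose in the homozygous mutant, where *Ccbe1* was low. Of its 22 genes, 10 were tested, and *Flt1*, *Nrp2* and *Tie1* were among them only through their *Trpm3*-M/M level. In *Trpm3*-KO 0 passed (2 at an unadjusted p under 0.05, 0 by DESeq2), in heterozygotes 5 rose and 1 fell (median log2 fold change 0.44), and in homozygotes 8 rose and 1 fell (median 0.89). That is 50% up and 10% down in heterozygotes (17.3% and 15.3% of all genes tested). In homozygotes it is 80% up and 10% down (31.4% and 31.4%). The greatest rise was that of *Flt1*, a VEGF receptor of endothelial cells, from 1, 5 and 3 counts in wild-type to 9.40 ± 1.35 CPM (SD, n = 3) in *Trpm3*-M/M (log2 fold change 7.24, standard error 0.46; adjusted p = 1.78e-08). *Nrp2*, a coreceptor of VEGF-C, rose by 5.40 (0.22; adjusted p = 2.36e-10). *Tie1* and *Tek* of this list are also endothelial markers, whose 12-gene sum was 14.98 to 17.4 CPM in wild-type and 71.3 to 85.2 CPM in *Trpm3*-M/M, and the part of endothelial cells in the list's rise was not tested. *Prox1*, a homeobox factor of both lens fibers and lymphatic endothelium and the most abundant gene of the list per kb, fell by 0.33 on the log2 scale (0.05; adjusted p = 8.63e-05), from 565.2 ± 1.22 CPM to 450.6 ± 7.02, but had 0.18 by library size alone.

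Genes of plasminogen activation moved in *Trpm3*-I/M, where *Plat* did not pass. Of 23 genes 7 were tested, and 6 rose and 0 fell in heterozygous lenses (median log2 fold change 1.46) and likewise in homozygous ones (median 1.79), while 2 rose in the knockout (median 0.06). The rises are 85.7% in heterozygotes (17.3% of all genes tested), 85.7% in homozygotes (31.4%) and 28.6% in the knockout (2.16%). *Serpine2*, a serpin that inhibits plasminogen activators, had 5, 6 and 11 counts in wild-type and rose by 2.35 (standard error 0.33; adjusted p = 0.000128) in heterozygotes and by 6.12 (0.25; adjusted p = 2.31e-10) in homozygotes. *Anxa2*, a cell-surface binding protein for plasminogen and the most abundant of the list per kb, rose by 0.47 (0.08; adjusted p = 0.00441) in knockout, 1.46 (0.08; adjusted p = 4.23e-08) in heterozygous and 2.09 (0.09; adjusted p = 2.73e-10) in homozygous lenses, with 1 sign throughout. *Lrp1*, an endocytic receptor for plasminogen activators, had log2 fold changes of −0.04, −0.16 and −0.06.

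The netrin list around *Dcc* was mixed. Of 32 genes, 18 were tested, and 1 rose in the knockout, 6 rose and 3 fell in heterozygotes and 10 rose and 3 fell in homozygotes (medians 0.02, −0.03 and 0.18). That is 33.3% up and 16.7% down in heterozygotes (17.3% and 15.3% of all genes tested). In homozygotes it is 55.6% up and 16.7% down (31.4% and 31.4%). The knockout call, *Ntng2* (0.22; adjusted p = 0.0478), was lost under 16 of 20 alternatives, among them leaving out any library other than wild-type replicate 3, with an adjusted p of up to 0.159. *Unc5b*, another netrin receptor, rose in *Trpm3*-M/M by 2.98 (standard error 0.15; adjusted p = 1.65e-09), from 7.45 ± 1.44 to 58.7 ± 5.12 CPM (SD, n = 3), and in *Trpm3*-I/M by 1.62 (0.15; adjusted p = 2.58e-06). *Neo1*, the nearest relative of *Dcc*, fell by 0.34 (0.11; adjusted p = 0.0142) in *Trpm3*-M/M, but had 0.17 by library size alone. *Robo1*, a receptor for Slit proteins, showed the greatest fall, by 0.79 (0.07; adjusted p = 2.56e-06) in *Trpm3*-I/M, and *Slit3*, the most abundant gene of the list per kb, had 0.03 in the knockout and rose by 0.57 (0.05; adjusted p = 3.50e-06) in heterozygotes and by 0.64 (0.05; adjusted p = 3.16e-07) in homozygotes.

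In the GABA list, 9 of 32 genes were tested, and 0 passed in *Trpm3*-KO (1 at an unadjusted p under 0.05, 0 by DESeq2). In heterozygotes 2 rose and 3 fell and in homozygotes 3 rose and 4 fell (medians 0.03, 0.01 and −0.16 in the 3 genotypes). That is 22.2% up and 33.3% down in heterozygotes (17.3% and 15.3% of all genes tested). In homozygotes it is 33.3% up and 44.4% down (31.4% and 31.4%). *Gabrg3*, a subunit of GABA-gated channels, fell by 1.48 (standard error 0.11; adjusted p = 9.93e-08) in *Trpm3*-M/M. *Slc6a11*, a GABA transporter, and *Abat*, which breaks GABA down, fell by 2.08 (0.17; adjusted p = 2.16e-07) and 1.55 (0.07; adjusted p = 4.41e-10). *Gabarap*, the most abundant of the list per kb, rose by 0.50 (0.05; adjusted p = 2.15e-06) in *Trpm3*-M/M.

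The list of RNA deadenylation and translational repression around *Samd4* changed mostly by less than 2-fold. Of 30 genes 26 were tested. In *Trpm3*-KO 0 passed (3 at an unadjusted p under 0.05, 1 by DESeq2), in heterozygotes 5 rose and 3 fell, and in homozygotes 6 rose and 4 fell (medians 0.02, 0.02 and 0.03). In homozygotes that is 23.1% up and 15.4% down, below the shares of all genes. *Zfp36l1*, which targets AU-rich messenger RNAs for decay, rose from 0.876 ± 0.367 to 43.9 ± 2.77 CPM (SD, n = 3) in *Trpm3*-M/M (log2 fold change 5.65, standard error 0.16; adjusted p = 1.17e-11), and *Btg1*, an antiproliferative partner of the deadenylases, fell by 1.08 (0.06; adjusted p = 9.04e-09). *Samd4b*, the paralog of *Samd4*, rose by 0.31 (0.04; adjusted p = 2.65e-05) in *Trpm3*-M/M. *Tob1*, the most abundant gene of the list per kb, rose by 0.35 (0.07; adjusted p = 0.00135) in *Trpm3*-I/M.

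None of the other genes of protein palmitoylation changed by 2-fold. Of 33 genes 25 were tested, with 0 past the threshold in *Trpm3*-KO (1 at an unadjusted p under 0.05, 0 by DESeq2), 3 up and 4 down in heterozygotes, and 7 up and 4 down in homozygotes (medians −0.01, 0.01 and 0.07). In homozygotes that is 28% up and 16% down, also below the shares of all genes. *Zdhhc14* had the greatest rise, 0.75 (standard error 0.13; adjusted p = 0.000175), and *Abhd17c*, a depalmitoylating enzyme, the greatest fall, 0.62 (0.07; adjusted p = 2.40e-06), both in *Trpm3*-M/M. *Abhd17a*, the most abundant of the list per kb, had 0.04 there. In *Trpm3*-KO, where *Zdhhc2* was selected for its difference from wild-type, none of the other 25 genes passed.

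**Figure D3:**
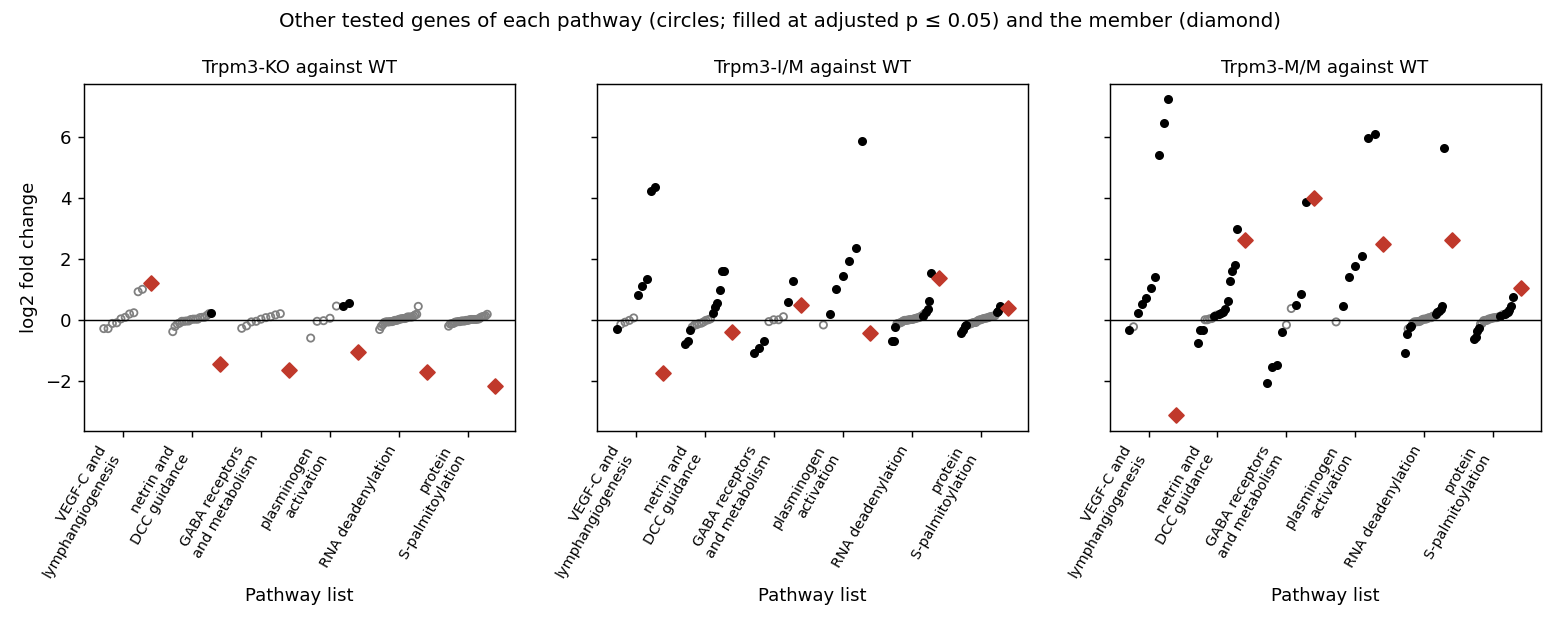
Log2 fold change against wild-type of the other tested genes in each pathway list (circles, filled at an adjusted p of at most 0.05) and of the selected gene of that pathway (red diamond), 1 panel a genotype. The diamonds were chosen for their differences in *Trpm3*-KO and *Trpm3*-M/M and the circles were not, so their distance in these panels is no result. In *Trpm3*-KO 3 circles are filled and the diamonds lie between −2.16 and 1.22. In *Trpm3*-M/M *Ccbe1* (−3.12) lies below the circles of its list.

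Summed markers of endothelium and macrophages were higher in both mutant genotypes, and those of pericytes and fibroblasts in the homozygous one. In bulk lens RNA, fewer cells of a type and less RNA per cell cannot be told apart. The summed level of the 12 endothelial markers was 14.98 to 17.4 CPM in wild-type, 14.6 to 15.5 in knockout, 26.9 to 35.1 in heterozygous and 71.3 to 85.2 in homozygous mutant lenses, with none at 0 in any genotype. The 10 macrophage markers summed to 0.436 to 0.590, 0.394 to 0.449, 0.894 to 1.03 and 9.90 to 20.6 CPM in the same order of genotypes, with 1 marker at 0 in wild-type and 1 in the knockout. The 12 markers of pericytes and fibroblasts summed to 181.7 to 190.9, 147.1 to 155.0, 181.1 to 210.1 and 322.3 to 458.6 CPM. The heterozygous sums overlapped wild-type, and the homozygous rise was not shared by the whole list. *Acta2* (211.6 ± 42.2 CPM in *Trpm3*-M/M, 68.3 ± 6.76 in wild-type; SD, n = 3), *Col1a1* (54.3 ± 23.3, 0.1275 ± 0.00943) and *Rgs5* (31.1 ± 2.61, 0.507 ± 0.403) were higher. *Pdgfra* (39.0 ± 1.63, 79.4 ± 4.47) and *Notch3* (10.3 ± 0.988, 21.4 ± 2.83) were lower. *Plat*, *Dcc*, *Gabrr1*, *Samd4* and *Zdhhc2* were highest in *Trpm3*-M/M, as were these sums, and the part of other cells in their levels was not tested. *Trpm3*-KO libraries, in which 5 of the 6 genes were low, had endothelial and macrophage sums that overlapped wild-type and pericyte and fibroblast sums below it. The lower sum lay mostly in *Pdgfra* (79.4 ± 4.47 to 59.3 ± 2.38 CPM; SD, n = 3) and *Acta2* (68.3 ± 6.76 to 49.4 ± 2.84). *Pdgfra* is on the epithelial list as well. The pericyte marker *Pdgfrb* went the other way, from 12.2 ± 2.29 to 17.9 ± 1.24 CPM.

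The retina is a tissue in which *Gabrr1* is known to be expressed. The 14 markers of inner retinal cells summed to 90.1 to 99.8, 89.2 to 98.7, 79.7 to 90.2 and 98.2 to 100.7 CPM across the 4 genotypes, with 2, 3, 1 and 0 of them at 0. Most of that sum was *Prkca* and *Tfap2a*. The bipolar cell markers *Grm6* and *Vsx1* were near 0: in *Trpm3*-M/M, *Grm6* had 0.0157 ± 0.00805 CPM (SD, n = 3) and *Vsx1* 0.00778 ± 0.00679, where *Gabrr1* had 5.34 ± 0.536. The 11 photoreceptor markers summed to 0.777 to 1.05, 0.673 to 1.10, 0.899 to 1.05 and 15.7 to 23.2 CPM, and in *Trpm3*-M/M *Arr3* made up 16.4 ± 4.998 CPM of it. The part of retinal RNA in the *Gabrr1* level was not tested.

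The sums of lens markers were lowest in the homozygous mutant, but not every marker was lower there. Of the epithelial list, *Aqp1*, *Npnt* and *Sulf1* were higher than in wild-type, and *Grifin* of the fiber list was about level. The 14 fiber markers summed to 117700 to 136700, 116900 to 122100, 99460 to 104300 and 73110 to 76030 CPM, with the genotypes in the same order. The 10 epithelial markers summed to 545.3 to 583.5, 493.7 to 517.3, 525.3 to 569.3 and 422.8 to 441.2 CPM. *Ccbe1* was lowest in the genotype with the lowest fiber and epithelial sums, and highest in *Trpm3*-KO, where the fiber sum overlapped wild-type. The part of lens cells in its level was not tested. The 8 markers of ciliary non-pigmented epithelium, a neighbour of the lens, summed to 82.5 to 88.3, 80.0 to 85.8, 109.7 to 113.1 and 135.0 to 138.5 CPM. Most of that sum was *Wls* (73.3 ± 2.59, 72.05 ± 3.005, 97.9 ± 1.93 and 124.4 ± 3.37 CPM; SD, n = 3). The others did not move together. From wild-type to *Trpm3*-M/M, *Opn3* went from 5.90 ± 0.858 to 3.12 ± 0.187 CPM and *Col9a1* from 5.085 ± 1.03 to 2.63 ± 1.07. *Cldn10* went from 0.215 ± 0.0406 to 4.37 ± 0.339. The 6 red blood cell genes summed to 1.22 to 11.9, 1.07 to 5.62, 4.71 to 12.9 and 12.4 to 14.95 CPM, the 8 pigment cell genes to 20.9 to 23.1, 21.0 to 23.7, 18.7 to 19.7 and 14.4 to 15.2 CPM, and the 7 corneal genes to 8.12 to 10.1, 8.08 to 8.88, 6.43 to 6.86 and 11.7 to 19.4 CPM. Their part in the levels of the 6 genes was not tested.

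**Figure D4:**
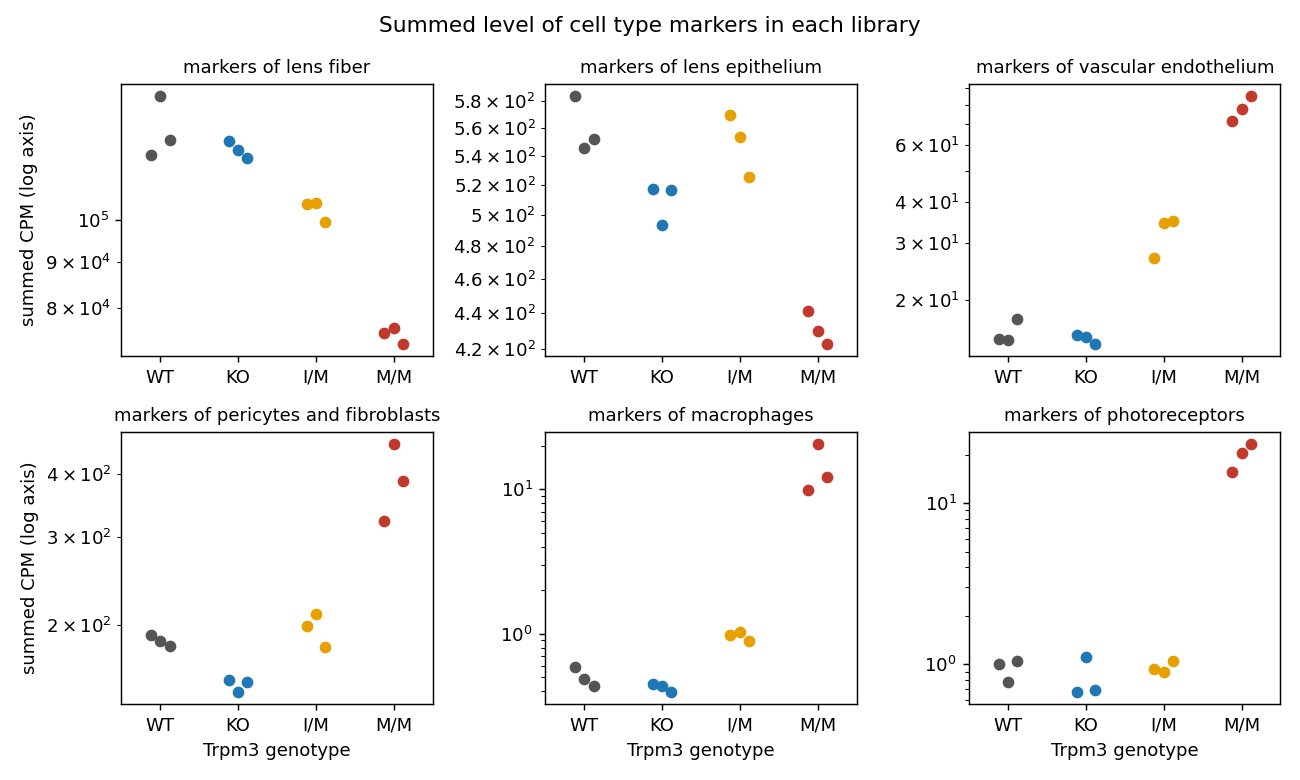
Summed CPM (log axis) of the markers of lens fibers, lens epithelium, vascular endothelium, pericytes and fibroblasts, macrophages and photoreceptors in each library, by genotype. Endothelial sums reach 71.3 to 85.2 CPM and macrophage sums 9.90 to 20.6 CPM in *Trpm3*-M/M, while fiber sums there lie at 73110 to 76030 CPM, below all other libraries.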

How the data were processed

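The 6 genes and all gene lists were chosen with earlier results of these data known. The authors aligned and counted reads with DRAGEN 3.9.3-8 against Ensembl release 101 (mm10, the same build as GRCm38) and deposited unnormalized estimated counts per gene, 88.4% of them whole. These were expected to be plain counts when the tests were chosen. They were rounded, and repeated entries of 168 identifiers were used once. The deposited CPM, fold changes and p-values of the authors' own comparisons were not used. Libraries were grouped by their labelled genotype.

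Genes with CPM ≥ 5 in ≥ 3 libraries were kept (8984 of 32253 with at least 1 count), scaled with TMM factors and fitted together by quasi-likelihood in edgeR 4.0.16 (R 4.3.3) with genotype as the only factor. P-values were adjusted by Benjamini-Hochberg over all genes tested, with a threshold of 0.05. The standard error is the log2 fold change divided by the root of the F statistic. The procedure was tested on simulated data. Log2 CPM for Pearson's r used a prior count of 2. Replicates are 3 pools of lenses per genotype, and p-values measure the spread between these pools. A library's depth of 56162169 to 82090198 counted reads sets the counting error, and genes under 20 counts are the least precise.

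Named genes are the 6 members, *Trpm3*, the 3 tested genes most correlated with each member, and for each pathway list the largest rise, the largest fall and the most abundant gene in wild-type. *Nrp2*, *Lrp1*, *Neo1*, *Ntng2*, *Tie1*, *Tek*, *Gabrg3*, *Abat*, *Samd4b*, *Cnot7* and the named marker genes were added after their values were seen. Some genes that this rule or the lists name are not reported here. Coordinates and exon lengths are from GENCODE vM21 (GRCm38). Alternatives were library size only, scaling without crystallin genes, upper-quartile scaling, DESeq2 1.42.0, no filter, CPM ≥ 1, fits of 2 genotypes at a time, a block for the replicate number, and each library left out in turn. Python 3.11.15 (numpy 2.4.6, pandas 2.3.3, matplotlib 3.10.9) was used besides.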

Additional observations from a re-analysis of the deposited data

How the results depend on the processing

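No log2 fold change of a member changed sign under the 20 alternatives. In *Trpm3*-KO and *Trpm3*-M/M against wild-type the choice of genes had set these signs, so their stability there is no support. In *Trpm3*-I/M, *Ccbe1* and *Samd4* passed under each alternative (log2 fold change −2.04 to −1.55 and 1.28 to 1.58). The count of members passing in *Trpm3*-I/M, 2, became 4 with library size only (*Gabrr1* and *Zdhhc2* joined) and 4 with no filter (*Plat* and *Zdhhc2* joined). Library size alone moved the median log2 fold change of all genes by 0.05 in knockout, 0.20 in heterozygous and 0.50 in homozygous lenses. The pathway genes passing were 3, 41 and 56 in these genotypes. With library size only, 62 passed in heterozygotes and 87 in homozygotes, and with no filter 8 in knockouts and 86 in homozygotes, and with DESeq2 5 in knockouts. The cause was not tested beyond the larger number of genes fitted without a filter.

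Replicate numbers did not pair the libraries: of 18 same-numbered pairs, 2 correlated above 0.1 (range −0.26 to 0.15). With the replicate block, 2 members and 2, 40 and 55 pathway genes passed. Depth limits *Gabrr1* most, with 3 to 9 counts in *Trpm3*-KO, and 5 of the 6 genes passed the filter through 1 genotype only.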
